A study of Mus musculus with 4 samples.

Results

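Regulatory T cells of GL261 brain tumours were taken from single-cell RNA libraries of sorted immune cells and compared between IFNaR-/- and wild-type hosts, with and without anti-PD1. A cell counted as a regulatory T cell when it had at least 1 UMI (a counted RNA molecule) of Foxp3, at least 1 UMI of Cd3d, Cd3e and Cd3g together and more of these than of the macrophage genes Csf1r and Cd68, and 0 UMIs of Cd8a and Cd8b1. The members were therefore chosen by their own measured values of these genes, and the levels of Foxp3, Cd3 and Cd8 in them are a description and not a result. The rule found 316 regulatory T cells among 26014 cells that passed the filter of 200 genes and at most 10% mitochondrial UMIs.

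The study asked what the host's type I interferon receptor does to the immune cells of an intracranial glioma and to their state after checkpoint blockade. GL261, a mouse glioma line, was injected into the brain, and live CD45.2+ 7-AAD- cells were sorted from pooled brain suspensions. There were 4 groups with 1 library each. Untreated IFNaR-/- hosts (untreated KO below) and untreated wild-type hosts (untreated WT) were sorted on day 20 after injection. IFNaR-/- hosts given anti-PD1 (anti-PD1 KO) and wild-type hosts given anti-PD1 (anti-PD1 WT) received 200 ug per mouse intraperitoneally on days 7, 11, 15 and 19 and were sorted on day 25, and in these animals CD3+ and CD3- cells were mixed 1:1 at the sort. The receptor was missing from every cell of the KO hosts, while the injected tumour cells came from a line and the labels do not say how many mice were pooled, of what age, or which receptor subunit was removed. With 1 pooled library per group, a difference between KO and WT has no replicate check, no p-value is given for it, and its intervals cover counting error only.

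Regulatory T cells are CD4 T cells that restrain other lymphocytes. They are built around the transcription factor Foxp3, take up interleukin-2 through the high-affinity receptor chain Il2ra, and carry inhibitory and costimulatory receptors such as Ctla4 and Tnfrsf4 (OX40). Type I interferon acts through the receptor pair Ifnar1 and Ifnar2 and a complex of factors that includes Stat2 and Irf9, which switches on interferon-stimulated genes at promoter elements made of spaced GAAA repeats. In tumours, regulatory T cells are usually activated cells that make little interleukin-2 and interferon-gamma and are known both for suppression and for tissue repair factors such as amphiregulin.

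The 316 cells were made up of 49 from untreated KO, 137 from untreated WT, 49 from anti-PD1 KO and 81 from anti-PD1 WT. Their summed UMIs came to 427912 in untreated KO, 1221182 in untreated WT, 308625 in anti-PD1 KO and 774943 in anti-PD1 WT, so the KO sums are the less precise side of each pair. The median regulatory T cell held 7015, 6971, 4487 and 7259 UMIs in the same order of groups, and the whole libraries held between 32410040 and 94732545 UMIs over 3705 to 9530 barcodes. Levels below are CPM, the UMIs of a gene scaled to 1000000 UMIs summed over the cells of a class in a library.

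The 4 libraries differ in make. UMIs of T cell receptor V segments per UMI of the constant regions in regulatory T cells came to 0.0843 in anti-PD1 KO and 1.69 in anti-PD1 WT, against 0.0165 in untreated KO and 0.0266 in untreated WT, although the labels name 1 kit for all. Malat1, a nuclear RNA, stood at 3548 CPM in anti-PD1 KO and 3479 CPM in anti-PD1 WT, against 21600 CPM in untreated KO and 28388 CPM in untreated WT. The untreated matrices carry the header of Cell Ranger 3.1.0 and the anti-PD1 matrices that of 7.2.0. Anti-PD1 KO and anti-PD1 WT shared 92 kept barcodes; 1 regulatory T cell of anti-PD1 KO and 2 of anti-PD1 WT were among them, and none was a regulatory T cell in both. Effects of treatment, day of sorting, the 1:1 mixing and the make of the library cannot be told apart between the untreated and the anti-PD1 libraries, and genotype and make cannot be told apart within the anti-PD1 pair.

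The cells carried the markers of their label. Foxp3 itself, at X:7573644-7595245 on the plus strand of GRCm38, had 580 CPM in untreated KO, 414 CPM in untreated WT, 327 CPM in anti-PD1 KO and 366 CPM in anti-PD1 WT, which the rule fixed in part. Il2ra, the interleukin-2 receptor alpha chain at 2:11642807-11693193, had 1519 CPM in untreated KO, 1065 CPM in untreated WT, 800 CPM in anti-PD1 KO and 930 CPM in anti-PD1 WT. Ikzf2 (Helios, a transcription factor that marks most thymus-derived regulatory T cells, at 1:69531214-69687245) had 1881, 1497, 2482 and 1503 CPM in these groups in the same order. Ctla4, the receptor that strips CD80 and CD86 from antigen-presenting cells (1:60887000-60915832), had 1337, 959, 1377 and 1650 CPM. Tnfrsf4 (4:156013843-156016612) had 965, 1086, 881 and 2180 CPM. The last 4 were above their levels in conventional CD4 T and CD8 T cells of the same libraries.

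Per cell the picture was the same. After each cell was thinned to 2000 UMIs, 2 or more of Il2ra, Ikzf2, Ctla4 and Tnfrsf4 were detected in 97.8% of regulatory T cells of untreated KO, 92.1% of untreated WT, 91.8% of anti-PD1 KO and 97.5% of anti-PD1 WT. Among conventional CD4 T cells (gated T cells with Cd4 and without Foxp3, Cd8a and Cd8b1 UMIs) the 4 shares lay between 39.9% and 55.8%, and among CD8 T cells without Foxp3 UMIs between 15.5% and 27.5%. A single Foxp3 UMI was the basis of membership in 13 cells of untreated KO, 35 of untreated WT, 20 of anti-PD1 KO and 11 of anti-PD1 WT. These cells just inside the threshold had 662, 764, 847 and 522 CPM of Il2ra, whereas the members with 2 or more Foxp3 UMIs had 1764, 1131, 772 and 961 CPM and the conventional CD4 T cells just outside it 447, 215, 190 and 127 CPM. Ikzf2 in the members with 1 Foxp3 UMI was 1334, 1721, 2302 and 1847 CPM, against 180, 197, 293 and 160 CPM in conventional CD4 T cells.

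Foxp3 UMIs were rare in myeloid cells, taken as cells with at least 3 UMIs of Csf1r and Cd68 together and without Cd3d, Cd3e and Cd3g UMIs. Since this leaves out myeloid barcodes that also hold Cd3 RNA, the shares say nothing of mixtures with T cells. Other cells outside the T cell gate were not counted. Foxp3 UMIs were found in 0.729% of myeloid cells of untreated KO, 1.03% of untreated WT, 0.231% of anti-PD1 KO and 0.309% of anti-PD1 WT. The median depths of these myeloid cells were 11112, 8328, 7155 and 9909 UMIs. Of gated T cells without Cd8a or Cd8b1 UMIs, which had median depths of 7778, 6308, 3317 and 5735 UMIs, 18.0%, 17.0%, 14.9% and 21.7% held a Foxp3 UMI. Cells with both Foxp3 and Cd8 UMIs fell outside the rule; there were 10 of 448, 33 of 876, 31 of 591 and 29 of 396 cells with Cd8 UMIs (2.23%, 3.77%, 5.25% and 7.32%), with median totals of 15785, 14087, 7424 and 14090 UMIs, larger than those of the regulatory T cells in each library.

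**Figure D1:**
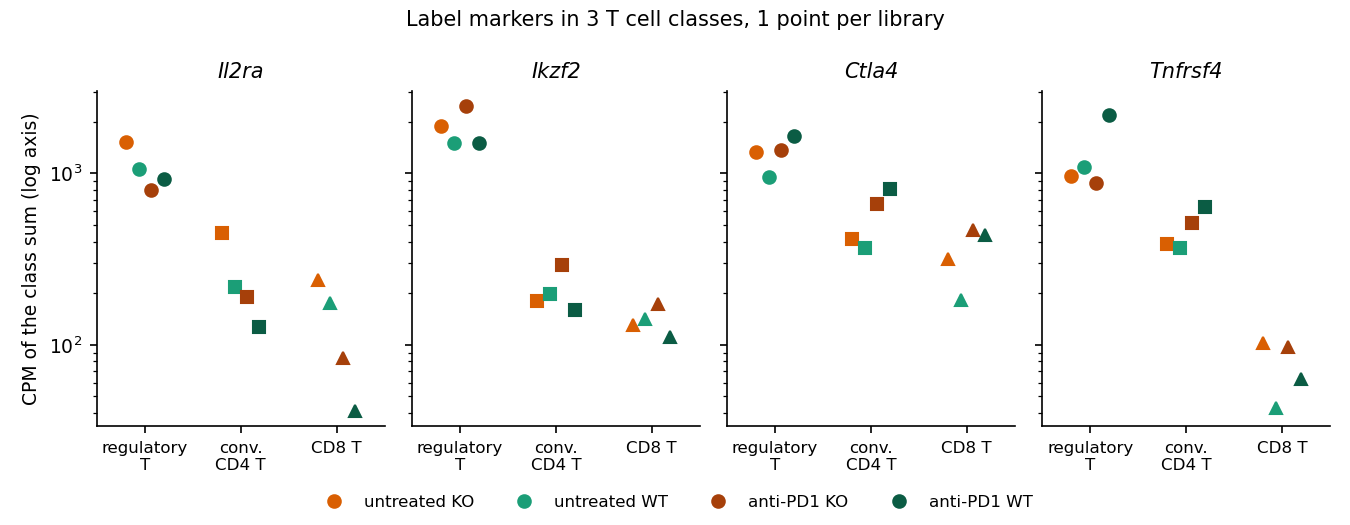
Level of 4 label markers in regulatory T, conventional CD4 T and CD8 T cells, in CPM of the class sum on a log axis, with 1 point per library and colours for the 4 groups. For each of the 4 genes, every regulatory T cell point lies above every point of the other classes, from 800 to 1519 CPM for Il2ra against 447 CPM or less in conventional CD4 T cells.

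As a share of all gated T cells, regulatory T cells made up 6.81% in untreated KO (49 of 720, exact 95% interval 5.08 to 8.90) and 8.14% in untreated WT (137 of 1683, 6.88 to 9.55). After anti-PD1 they made up 5.33% in KO (49 of 920, 3.97 to 6.98) and 10.5% in WT (81 of 769, 8.45 to 12.9). The log2 ratio KO/WT was -0.26 in the untreated pair (-0.71 to 0.20, so the counting intervals overlap) and -0.98 in the anti-PD1 pair (-1.48 to -0.49). Among gated T cells without Cd8a or Cd8b1 UMIs the shares were 18.0% in untreated KO and 17.0% in untreated WT, and 14.9% in anti-PD1 KO and 21.7% in anti-PD1 WT, with log2 ratios of 0.09 and -0.54 (-1.01 to -0.08). The difference between anti-PD1 KO and WT was thus smaller against gated T cells without Cd8a or Cd8b1 UMIs than against all gated T cells. The former include cells with neither Cd4 nor Foxp3 UMIs, 127 of 329 in anti-PD1 KO and 70 of 373 in anti-PD1 WT. A share of CD4 T cells alone was not taken. Against all gated T cells the log2 ratio was larger in size, -1.53, when 2 Foxp3 UMIs were asked for. Regulatory T cells of anti-PD1 KO held a median of 4487 UMIs and those of anti-PD1 WT 7259. With every cell thinned to 2000 UMIs before the gate the ratio was -0.65 (-1.25 to -0.05). The shares come from sorted and partly remixed suspensions and describe these libraries, not the tumour.

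**Figure D2:**
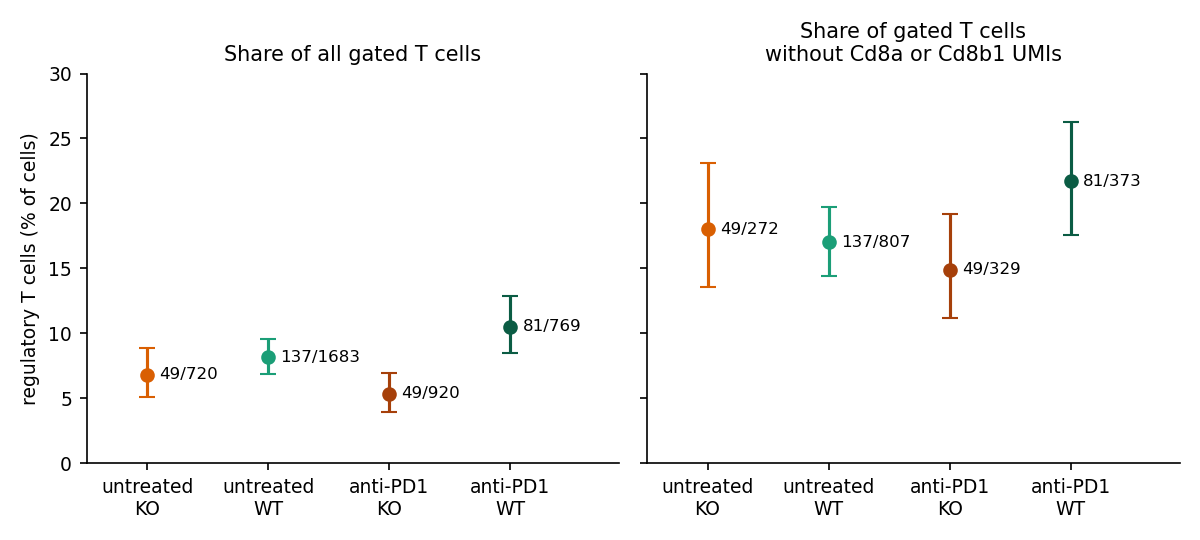
Share of regulatory T cells in each library as a percentage of all gated T cells (left) and of gated T cells without Cd8a or Cd8b1 UMIs (right), with exact 95% intervals for counting error and the counts beside each point. The anti-PD1 KO point lies below the anti-PD1 WT point in both panels, 5.33% against 10.5% on the left, while the untreated pair overlaps.

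Against conventional CD4 T cells of the same libraries, regulatory T cells carried the membrane and effector genes of activated suppressor cells and had less of the cytokines of helper cells. The 2 classes were compared over the 4 libraries with edgeR's quasi-likelihood test on summed counts, with the library as a block and Benjamini-Hochberg adjustment over 9233 genes, the genes of the gate and Cd4 left out. At an adjusted p of 0.05, 454 genes (4.92%) were higher and 448 (4.85%) lower in regulatory T cells, and 442 and 425 of them moved the same way in all 4 libraries. Of 25 tested genes of the regulatory T cell identity list, 18 were higher and 2 lower, with a median log2 fold change of 1.24 where the median of all genes was -0.00. Of 30 genes of activated effector regulatory T cells, 17 were higher and 2 lower (median 0.84). Of 17 suppressive mediators, 10 were higher and none was lower (median 0.84). The count of calls was 461 without the untreated WT library, which holds the most regulatory T cells, and 129 without the library block.

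Among the surface receptors, Lrrc32 (GARP, which holds latent TGF-beta on the cell) had 41 UMIs in untreated KO, 90 in untreated WT, 36 in anti-PD1 KO and 107 in anti-PD1 WT regulatory T cells, against 1, 10, 4 and 9 UMIs in the larger conventional CD4 T cell sums. Its log2 fold change was 4.81 ± 0.26 (SE, adjusted p = 1.19e-06 by edgeR). Itgb8, the integrin chain that frees TGF-beta from that complex, was higher by 2.63 ± 0.19 (adjusted p = 5.34e-06). Klrg1, a receptor of terminally differentiated effector cells, had 175, 158, 311 and 124 CPM in regulatory T cells against 2.72, 5.09, 17.4 and 6.88 CPM in conventional CD4 T cells, a log2 fold change of 4.63 ± 0.22 (adjusted p = 5.56e-07). The TNF receptor family members Tnfrsf8 (CD30, 4.03 ± 0.26), Tnfrsf9 (4-1BB, 1.50 ± 0.14), Tnfrsf4 (1.30 ± 0.14) and Tnfrsf18 (GITR, 1.25 ± 0.12) were higher in all 4 libraries. Il1rl1 (ST2, the receptor of the alarmin interleukin-33) was higher by 2.55 ± 0.20 (adjusted p = 1.09e-05), with 220, 96.6, 373 and 95.5 CPM against 22.4, 15.0, 104 and 12.6 CPM. Among homing receptors Ccr2 (a monocyte chemokine receptor also used by activated T cells, 2.62 ± 0.22) and Itgae (CD103, 2.28 ± 0.29) were higher.

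Of the label markers not used by the rule, Ikzf2 was higher by 3.09 ± 0.12 on the log2 scale (adjusted p = 1.29e-07), Il2ra by 2.19 ± 0.16 (adjusted p = 7.83e-06) and Ctla4 by 1.22 ± 0.12 (adjusted p = 6.64e-05). Gzmb, granzyme B, was at 1830 CPM in untreated KO, 1811 CPM in untreated WT, 480 CPM in anti-PD1 KO and 1176 CPM in anti-PD1 WT regulatory T cells, against 122, 241, 19.8 and 62.4 CPM in conventional CD4 T cells. It rose by 3.70 ± 0.23 (adjusted p = 2.39e-06) while 9 of the 17 tested cytotoxic genes fell. Il10, the suppressive cytokine, rose by 1.93 ± 0.28 (adjusted p = 0.000943), and Areg, amphiregulin, by 1.83 ± 0.30 (adjusted p = 0.00232), both in 4 of 4 libraries. The transcription factor Maf, an inducer of Il10, rose by 1.26 ± 0.10 (adjusted p = 1.53e-05). Frmd5, a membrane-cytoskeleton protein gene, rose by 3.71 ± 0.22 (adjusted p = 1.88e-06). The other genes among the 12 with the largest log2 fold changes were Clec2l, Ky, 2010005H15Rik, Ppm1l, Dgat2, Rragd and Msrb3, all between 3.36 and 4.35 and from sums of at most 45 UMIs a library.

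Ifng, Il2 and Cd40lg were lower in regulatory T cells, and Il10 and Areg were higher, as given above. Ifng had 20 UMIs in untreated KO, 129 in untreated WT, 15 in anti-PD1 KO and 33 in anti-PD1 WT regulatory T cells, against 2135, 3108, 573 and 2008 in conventional CD4 T cells, and fell by 4.15 on the log2 scale (SE 0.27, adjusted p = 3.2e-06). Il2, the growth factor that regulatory T cells consume but do not make, had 4 UMIs in untreated WT and 0 in the other regulatory T cell sums, against 46, 24, 43 and 126 in conventional CD4 T cells (adjusted p = 0.00146). Cd40lg, the helper signal to B cells and dendritic cells, fell by 3.79 (SE 0.31, adjusted p = 1.46e-05). Ccr6, a homing receptor of Th17 cells, had 3 UMIs over the 4 regulatory T cell sums against 190 in conventional CD4 T cells and also fell (adjusted p = 0.000366). The stem-like and survival genes Tcf7 and Bcl2 fell by 3.32 (SE 0.36) and 3.07 (SE 0.23). Gzme and Gzmd, granzymes of strongly stimulated killer cells, had 0 UMIs in all 4 regulatory T cell sums, so that over the 4 libraries they were at least 73.7-fold and at least 64.6-fold lower against a floor of 3 UMIs. Gm2663, 1810009J06Rik, Sostdc1, Exph5, Ptn and Scg2 also had 0 UMIs in regulatory T cells, with bounds of 36.6-fold to 15.7-fold.

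Not all identity and checkpoint genes followed the list. Nrp1, a semaphorin receptor used to mark thymus-derived regulatory T cells, was at 35.0, 41.8, 48.6 and 49.0 CPM in regulatory T cells and at 221, 195, 229 and 171 CPM in conventional CD4 T cells, and fell by 2.26 (SE 0.16, adjusted p = 5.34e-06). Pdcd1, the PD-1 receptor that the antibody binds, had 49.1, 50.8, 90.7 and 164 CPM in regulatory T cells, against 219, 242, 249 and 358 CPM in conventional CD4 T cells, and fell by 1.77 (SE 0.19, adjusted p = 0.000123). Of the 11 tested checkpoint receptors, 3 were higher and 5 lower (median -0.29). Lag3 (log2 fold change -0.07, adjusted p = 0.818) and Ccr8 (-0.03, adjusted p = 0.968) did not pass the test. The class of conventional CD4 T cells is defined by the absence of Foxp3 UMIs and can hold regulatory T cells in which Foxp3 was missed; its median depths were 9111, 7486, 3894 and 6140 UMIs.

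**Figure D3:**
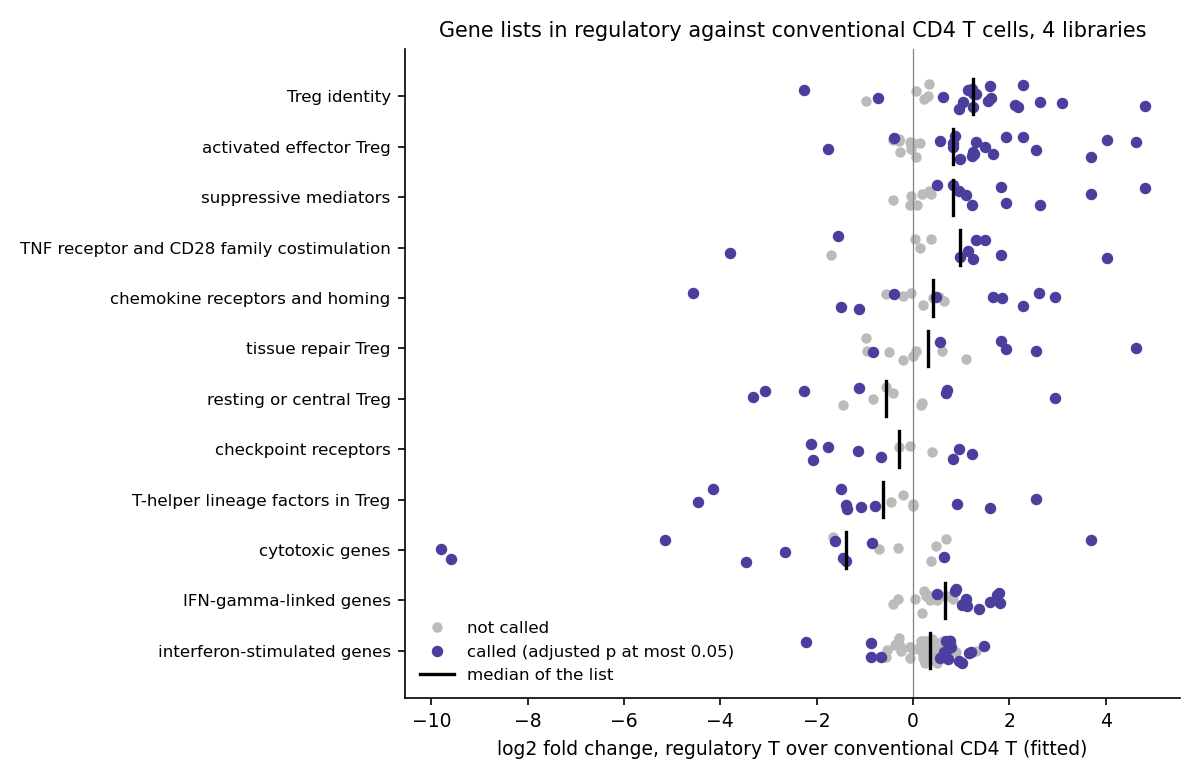
Fitted log2 fold change of regulatory T over conventional CD4 T cells for the tested genes of 12 lists, with called genes in purple, others in grey and the list median as a black bar. The identity, activated, suppressive and costimulation lists lie mostly to the right (medians 1.24, 0.84, 0.84 and 0.97) and the cytotoxic list to the left (-1.40); Gzmd and Gzme, at the far left, had 0 UMIs in regulatory T cells, so their fitted values are no bounds.

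Against CD8 T cells (2208 cells with Cd8a or Cd8b1 and without Foxp3 UMIs), 758 genes (7.21%) were higher and 718 (6.83%) lower of 10518 tested by the same edgeR model, and 718 and 645 of them moved the same way in all 4 libraries. The count of calls was 839 without untreated WT and 253 without the library block. Of 26 identity genes 22 were higher and 1 lower (median log2 fold change 1.11), and of 30 activated effector genes 20 were higher and 3 lower (median 1.28). Frmd5 was higher by 7.04 ± 0.26 (adjusted p = 2.01e-08), Nckap5 by 6.43 ± 0.36 (adjusted p = 5.33e-07) and Tnfrsf8 by 5.40 ± 0.33 (adjusted p = 8.73e-07). Klrg1 was higher by 5.28 ± 0.32, and Ncmap, Slc30a2, 2010005H15Rik, Cyp2s1, Cpe, Nid2, Myo1d and Matn2, with 14 to 99 UMIs over the regulatory T cell sums, by 5.12 to 5.93. Izumo1r (folate receptor 4, abundant on regulatory T cells, 4.96 ± 0.28), Il1rl1 (4.83 ± 0.24), Areg (4.38 ± 0.53) and Il10 (4.07 ± 0.28) were also higher. Of 18 tested cytotoxic genes 15 were lower and none was higher (median -3.17). Gzma, the main granzyme of memory-like killers, had 209 UMIs over the 4 regulatory T cell sums against 108461 in CD8 T cells and fell by 6.41 (SE 0.64, adjusted p = 3.54e-05), and Gzmf had 11 against 39470. Gzmd, Gzmg and Gzme had 0 UMIs in all 4 regulatory T cell sums and were at least 91.6-fold, 82.9-fold and 49.2-fold lower over the 4 libraries against the floor of 3 UMIs, and Gm44174, Spats2, Adgrg3 and Smyd1 were at 0 as well. Gzmb, Ccl3 and Cst7 were the 3 that did not pass the test, with log2 fold changes of -0.32 ± 0.19 (adjusted p = 0.347), -0.45 ± 0.28 (adjusted p = 0.366) and -0.15 ± 0.17 (adjusted p = 0.642).

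In nearly all regulatory T cells genes of activation outnumbered genes of the resting state. With every cell thinned to 2000 UMIs, the UMIs of 16 resting or central genes exceeded those of 30 activated effector genes in 0 of 45 cells of untreated KO (exact 95% upper limit 7.87%), 4 of 127 of untreated WT (3.15%), 0 of 49 of anti-PD1 KO (upper limit 7.25%) and 0 of 80 of anti-PD1 WT (upper limit 4.51%). The median cell held 5, 2, 4 and 2 UMIs of the resting list and 30, 25, 33 and 36.5 UMIs of the activated list. The lists are of unequal length, so the comparison orders cells and says nothing of an absolute state. The numbers of resting cells were too small for a ratio between KO and WT.

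Interferon-stimulated genes were lower in KO than in WT regulatory T cells, in both pairs. In the untreated pair 53 of the 76 listed genes present in the files had at least 50 UMIs over both libraries; 49 of them were lower and 4 higher in KO, and 37 were at least 2-fold lower, where 118 of all 4806 measured genes (2.46%) were, while 81 (1.69%) were at least 2-fold higher. In the anti-PD1 pair 48 were measured, all 48 were lower in KO and 33 were at least 2-fold lower, where 417 of 3650 genes (11.4%) were and 297 (8.14%) were at least 2-fold higher. The median log2 ratio KO/WT of the list was -1.29 in the untreated and -1.58 in the anti-PD1 pair, against 0.03 and 0.02 for all measured genes. Summed over the measured members, the list came to 5263 CPM in untreated KO and 16012 CPM in untreated WT, and to 4669 CPM in anti-PD1 KO and 16650 CPM in anti-PD1 WT.

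Ifi27l2a, a small mitochondrial-membrane protein gene induced by interferon, was the most abundant member. It had 103 UMIs (241 CPM) in 26 of 49 cells of untreated KO and 8144 UMIs (6669 CPM) in 133 of 137 cells of untreated WT, a log2 ratio of -4.79 (-5.09 to -4.51). After anti-PD1 it had 109 UMIs (353 CPM), 52.3% of them in 1 cell, in KO and 3018 UMIs (3894 CPM) in WT, a log2 ratio of -3.46 (-3.75 to -3.19). Isg15, the ubiquitin-like modifier, had 42.1 CPM in untreated KO and 388 CPM in untreated WT, and 42.1 CPM in anti-PD1 KO and 653 CPM in anti-PD1 WT, with log2 ratios of -3.19 (-3.97 to -2.53) and -3.93 (-4.87 to -3.17). Irf7, the factor that amplifies the type I interferon response, had 11.7 and 130 CPM in the untreated KO and WT and 16.2 and 245 CPM in the anti-PD1 KO and WT. Bst2 (tetherin, which holds budding viruses at the membrane) had 63.1 CPM in untreated KO and 339 CPM in untreated WT, and 139 CPM in anti-PD1 KO and 680 CPM in anti-PD1 WT. Each of these genes was lower in KO than in WT in both pairs, with counting intervals that do not overlap.

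The 3 members that ranked first over both pairs had 0 or 1 UMI in each KO sum. Rtp4, a chaperone of chemosensory and opioid receptors that interferon induces, had 0 UMIs in untreated KO and 93 in untreated WT, and 0 in anti-PD1 KO and 135 in anti-PD1 WT, so that KO was at least 10.9-fold and at least 17.9-fold lower against a floor of 3 UMIs in the KO library. Ifi213, a member of the HIN-200 family of nucleic acid-binding proteins, had 1 UMI in untreated KO and 73 in untreated WT (25.6-fold lower, 4.45 to 1024), and 1 in anti-PD1 KO and 60 in anti-PD1 WT (23.9-fold lower, 4.13 to 959). Oasl2, an oligoadenylate synthetase-like protein gene, had 0 UMIs in untreated KO and 68 in untreated WT, at least 7.94-fold lower, and 1 in anti-PD1 KO and 56 in anti-PD1 WT. Ifitm3, Lgals3bp and Xaf1, picked after their values were seen, had log2 ratios of -1.99, -3.03 and -2.27 in the untreated and -1.98, -3.70 and -4.71 in the anti-PD1 pair.

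Per cell, thinned to 2000 UMIs, an Isg15 UMI was found in 6.67% of regulatory T cells of untreated KO (exact 95% interval 1.40 to 18.3) and 37.0% of untreated WT (28.6 to 46.0), and in 8.16% of anti-PD1 KO (2.27 to 19.6) and 51.2% of anti-PD1 WT (39.8 to 62.6). Without thinning the shares were 24.5% and 65.7%, and 18.4% and 77.8%. A Bst2 UMI was found after thinning in 8.89% and 42.5% of the untreated KO and WT cells and in 20.4% and 61.2% of the anti-PD1 KO and WT cells. The share of cells with a UMI was thus lower in KO for both genes, with intervals of Isg15 that do not overlap within a pair.

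**Figure D4:**
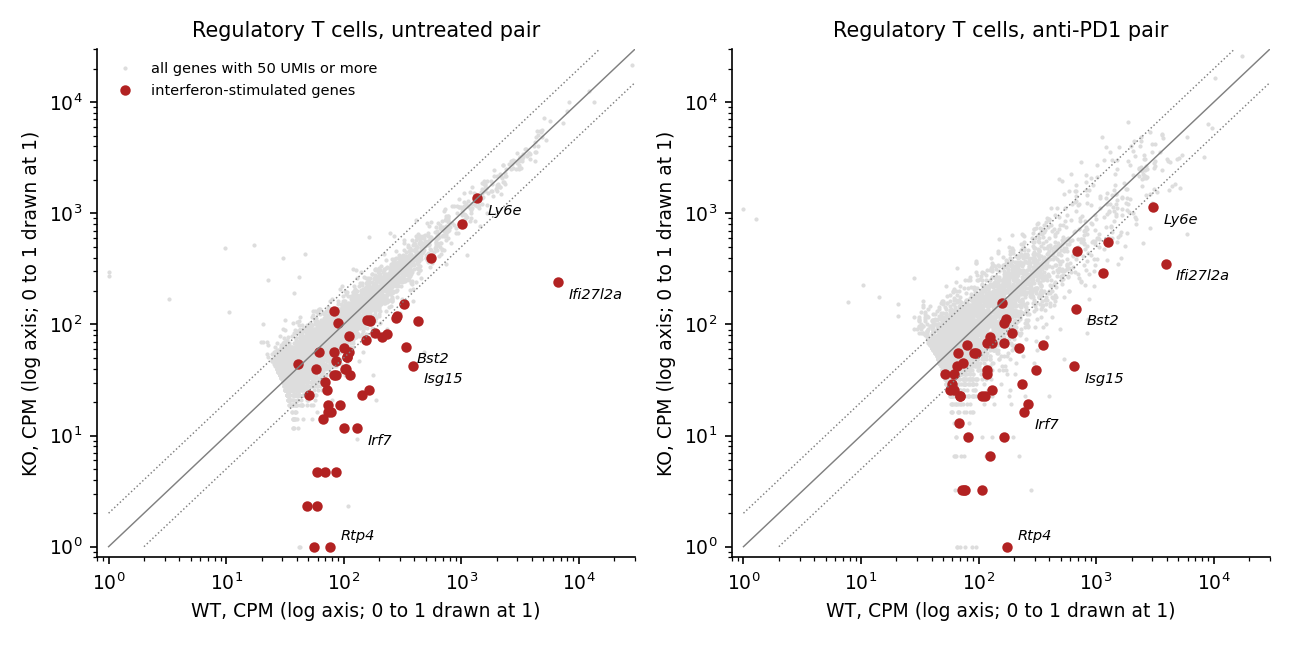
CPM of each gene with at least 50 UMIs in the pair in KO (vertical) and WT (horizontal) regulatory T cells, on log axes, for the untreated (left) and anti-PD1 (right) libraries, with interferon-stimulated genes in red, other genes in grey, equality as a solid line and 2-fold differences as dotted lines. Most red points lie under the lower dotted line, 37 of 53 on the left and 33 of 48 on the right, with Rtp4 at 0 UMIs in KO drawn at 1.

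Where the promoter of such a gene was in the RefSeq table of GRCm38.p6 promoters (250 bases before to 50 after a gene's start), it was searched for GAAANNGAA on both strands, the letters of the core that the complex of Stat2 and Irf9 binds. Of the 46 interferon-stimulated genes measured in both pairs 38 had a promoter in the table, and 14 of these (36.8%) held the letters, against 2812 of all 32851 promoters (8.56%) and 4 of 18 (22.2%) of the regulatory T cell identity list. The windows of 4 genes that differ strongly between KO and WT are shown, 60 bases each, 5′ to 3′ on the gene's strand, with matches in capitals (TTCNNTTTC is the same element on the other strand). Isg15 lies at chr4:156200862-156200921 (minus strand), Bst2 at chr8:71537568-71537627 (minus), Ifi213 at chr1:173599311-173599370 (minus) and Ifit1, an RNA-binding interferon-induced protein gene, at chr19:34640755-34640814 (plus).
Isg15: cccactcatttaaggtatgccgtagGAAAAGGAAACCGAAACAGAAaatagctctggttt
Bst2: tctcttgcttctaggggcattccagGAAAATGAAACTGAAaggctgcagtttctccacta
Ifi213: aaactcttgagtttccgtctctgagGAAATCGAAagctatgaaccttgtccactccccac
Ifit1: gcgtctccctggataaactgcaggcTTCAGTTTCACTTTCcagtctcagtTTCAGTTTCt
Isg15 and Bst2 each hold overlapping matches in 1 run, and Ifit1 holds 2 separate runs in the other orientation. Ifit1 had 2 UMIs in untreated KO and 72 in untreated WT regulatory T cells (12.6-fold lower, 3.37 to 106), but only 10 in anti-PD1 KO and 29 in anti-PD1 WT, too few to be measured. Irf7, Oasl2, Xaf1 and Lgals3bp held no such letters in their windows. A match is a description of the letters and no evidence of binding.

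The signalling genes themselves had smaller median differences than their targets. Stat2 had 39.7 CPM in untreated KO and 105 CPM in untreated WT, and 29.2 CPM in anti-PD1 KO and 59.4 CPM in anti-PD1 WT. Irf9 had log2 ratios of -0.46 (-1.05 to 0.09) and -1.23 (-2.55 to -0.16). Ifnar1, at 16:91485238-91507441, had 105 CPM in untreated KO and 83.5 CPM in untreated WT, and 165 CPM in anti-PD1 KO and 78.7 CPM in anti-PD1 WT; since the labels do not say which subunit or which part of the gene is missing, its RNA does not check the genotype. Of the 11 measured genes of the receptor and signalling list 5 were lower in untreated KO, 1 of them by 2-fold (median 0.08). In anti-PD1 KO 7 were lower, 4 of them by 2-fold, and 2 were 2-fold higher (median -0.41), where 11.4% of all measured genes were 2-fold lower and 8.14% 2-fold higher. In cells with no UMI of Csf1r or Cd68 that median was 0.10.

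The 4 interferon-stimulated genes that were not lower in untreated KO were Ly6e, Parp10, Nampt and Tapbpl. Ly6e, an abundant membrane protein gene of T cells, had 1367 CPM in untreated KO and 1364 CPM in untreated WT, but 1141 CPM in anti-PD1 KO and 3039 CPM in anti-PD1 WT (log2 ratio -1.41, -1.58 to -1.25). Tapbpl, a peptide editor of MHC class I, had log2 ratios of 0.67 and -0.78. Parp10 (0.12) and Nampt (0.19) had intervals that span 0. The list was chosen as type I interferon targets and several of its members also respond to interferon-gamma.

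Macrophage RNA was present in the regulatory T cell sums and differed between the libraries. The 18 macrophage and monocyte markers outside the rule came to 1788 CPM in untreated KO and 1658 CPM in untreated WT, and to 5696 CPM in anti-PD1 KO and 18301 CPM in anti-PD1 WT, none of them at 0 in any of the 4 sums. That is 6.45%, 4.75%, 8.48% and 23.8% of their level in myeloid cells of the same library. The interferon-stimulated genes stood at 112% of the myeloid level in untreated KO, 72.3% in untreated WT, 146% in anti-PD1 KO and 104% in anti-PD1 WT, and Ifi27l2a at 2956%, 270%, 4482% and 475%. With only cells that had no UMI of Csf1r or Cd68, the list's median log2 ratio was -1.16 in the untreated pair, with 45 of 48 genes lower, and -1.34 in the anti-PD1 pair, with 16 of 17 lower. The median over the same genes in conventional CD4 T cells was -1.56 in the untreated and -1.44 in the anti-PD1 pair, in CD8 T cells -1.32 and -1.78, and in myeloid cells -2.30 and -2.28; whether the classes differ was not tested. In regulatory against conventional CD4 T cells 12 of 73 interferon-stimulated genes were higher and 4 lower, where 4.92% of all tested genes were higher and 4.85% lower. Isg20, an RNA exonuclease gene, was among the higher ones (1.48 ± 0.19, adjusted p = 0.000339 by edgeR).

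Genes of antigen presentation and interferon-gamma response shifted in the same direction by less. Of the MHC class I presentation genes, 15 of 22 measured stood lower in untreated KO, none of them by 2-fold (median log2 ratio -0.19), and of 21 in the anti-PD1 pair 19 were lower, 6 of them by 2-fold (median -0.73). Of all measured genes 2.46% were 2-fold lower in untreated KO and 11.4% in anti-PD1 KO. Psmb8, an immunoproteasome subunit, had 332 CPM in untreated KO and 542 CPM in untreated WT, and 392 CPM in anti-PD1 KO and 1018 CPM in anti-PD1 WT. Psmb9, another such subunit, had log2 ratios of -0.67 and -0.80, and H2-T22, a non-classical class I chain, of -0.56 (-0.96 to -0.19) and -1.53 (-2.09 to -1.03). Of 23 interferon-gamma-linked genes 16 were lower in untreated KO (4 by 2-fold, median -0.12), and of 21 in the anti-PD1 pair 17 were lower (8 by 2-fold, median -0.26), against the same shares of all genes. Irgm1 and Iigp1, immunity-related GTPases, had log2 ratios of -1.29 and -0.48 in the untreated pair and -1.17 and -1.53 in the anti-PD1 pair, and the chemokine Ccl5 had -1.25 and -1.32. Dendritic cell markers, which include MHC class II genes, summed to 14312 CPM in anti-PD1 KO and 17983 CPM in anti-PD1 WT, and to 3204 CPM in untreated KO and 4052 CPM in untreated WT, with none of the 10 at 0; their part in the result was not tested.

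Cytotoxic genes were also lower in KO regulatory T cells. Of 9 measured in the untreated pair 7 were lower, 5 of them by 2-fold, and 1 was 2-fold higher (median -1.08). Of 8 in the anti-PD1 pair all 8 were at least 2-fold lower (median -1.63). Among all measured genes 2.46% were at least 2-fold lower and 1.69% at least 2-fold higher in the untreated pair. The share at least 2-fold lower in the anti-PD1 pair was 11.4%. Prf1, the pore-forming perforin, had 15 UMIs in untreated KO and 218 in untreated WT, and 3 in anti-PD1 KO and 101 in anti-PD1 WT, with log2 ratios of -2.33 (-3.21 to -1.59) and -3.62 (-6.05 to -2.16). Those UMIs came from 9, 34, 2 and 19 cells, and 46.5% of the anti-PD1 WT UMIs from 1 cell. Nkg7, a granule protein of killer cells, had 425 CPM in untreated KO and 1116 CPM in untreated WT, and 509 CPM in anti-PD1 KO and 1768 CPM in anti-PD1 WT (-1.39 and -1.80). Ccl3, a chemokine that macrophages make as well, had log2 ratios of -1.36 and -2.91. Gzmb did not follow in the untreated pair, with 1830 CPM in KO and 1811 CPM in WT, and had 480 CPM in anti-PD1 KO and 1176 CPM in anti-PD1 WT. Gzma was the 2-fold higher gene, with 400 CPM in untreated KO and 30.3 CPM in untreated WT, and 83.6% of the untreated KO UMIs came from 1 cell. Il10 was lower in KO in both pairs, at 161 CPM in untreated KO and 258 CPM in untreated WT, and 136 CPM in anti-PD1 KO and 254 CPM in anti-PD1 WT (-0.68, -1.08 to -0.30, and -0.90, -1.42 to -0.41). NK cells and CD8 T cells carry these killer genes too; 8 NK markers summed to 563 CPM in untreated KO, 171 CPM in untreated WT, 736 CPM in anti-PD1 KO and 844 CPM in anti-PD1 WT regulatory T cells, with the defining NK receptor Ncr1 at 0 in all 4. Of these sums Gzma gave 400 CPM in untreated KO, and Tyrobp, which macrophages share, gave 729 CPM in anti-PD1 KO and 836 CPM in anti-PD1 WT. In conventional CD4 T cells Nkg7 had 839 CPM in untreated KO, 1206 CPM in untreated WT, 755 CPM in anti-PD1 KO and 1223 CPM in anti-PD1 WT. In the same order they had 122, 241, 19.8 and 62.4 CPM of Gzmb and 95.1, 82.9, 12.4 and 72.8 CPM of Prf1. Their Ccl3 was at 689, 614, 498 and 711 CPM. Whether the classes differ in this was not tested.

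Satb1 and Il7r were higher in KO in both pairs. Satb1, a chromatin organiser of naive and central T cells, had 666 CPM in untreated KO and 248 CPM in untreated WT, and 800 CPM in anti-PD1 KO and 314 CPM in anti-PD1 WT, with log2 ratios of 1.42 (1.19 to 1.66) and 1.35 (1.09 to 1.61). Il7r, the interleukin-7 receptor of long-lived T cells, had log2 ratios of 0.97 (0.69 to 1.25) and 0.57 (0.20 to 0.94), and Foxp1, a quiescence factor, of 0.19 (-0.23 to 0.61) and 1.28 (0.88 to 1.69). In conventional CD4 T cells Satb1 was also higher in KO, at 310 CPM in untreated KO and 190 CPM in untreated WT. After anti-PD1 it was at 451 CPM in KO and 196 CPM in WT. Their Il7r had 237, 218, 252 and 264 CPM in the same order, and their Foxp1 118, 146, 227 and 131 CPM. Whether the classes differ in these genes was not tested. Of the 8 measured resting or central genes 7 were higher in untreated KO, 1 of them by 2-fold (median 0.81), and of 6 in the anti-PD1 pair 4 were higher, 2 of them by 2-fold, and Klf2 was 2-fold lower (median 0.70). In the untreated pair 1.69% of all measured genes were 2-fold higher, and in the anti-PD1 pair 8.14% were 2-fold higher and 11.4% 2-fold lower.

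Genes of the interleukin-33 and tissue repair programme were higher in untreated KO. Il1rl1 had 220 CPM in untreated KO and 96.6 CPM in untreated WT, and 373 CPM in anti-PD1 KO and 95.5 CPM in anti-PD1 WT, with log2 ratios of 1.18 (0.78 to 1.59) and 1.95 (1.53 to 2.41). Gata3, the type 2 lineage factor that drives Il1rl1, had 311 CPM and 127 CPM in the untreated KO and WT, and 94.0 CPM and 41.3 CPM in the anti-PD1 KO and WT (1.29, 0.95 to 1.64, and 1.17, 0.41 to 1.96). Ahr, a sensor of dietary and microbial ligands, had log2 ratios of 1.18 (0.66 to 1.72) and 1.58 (0.76 to 2.47), and Furin, a protease that matures TGF-beta, of 0.70 and 0.96. Areg had 608 CPM in untreated KO and 165 CPM in untreated WT, but 1789 CPM in anti-PD1 KO and 1448 CPM in anti-PD1 WT (1.88, 1.61 to 2.16, and 0.30, 0.16 to 0.45). An Areg UMI was found in 18 of 49 cells of untreated KO, 31 of 137 of untreated WT, 31 of 49 of anti-PD1 KO and 30 of 81 of anti-PD1 WT. Conventional CD4 T cells had the same direction. Their Areg was at 232 CPM in untreated KO, 51.8 CPM in untreated WT, 836 CPM in anti-PD1 KO and 130 CPM in anti-PD1 WT. In the same order Il1rl1 had 22.4, 15.0, 104 and 12.6 CPM there, and Gata3 185, 114, 214 and 76.2 CPM. Whether the classes differ in this was not tested. Of 11 measured repair genes 10 were higher in untreated KO, 5 of them by 2-fold (median 0.70), and of 12 in the anti-PD1 pair 7 were higher, 3 of them by 2-fold, and 2 were 2-fold lower (median 0.20). Of all measured genes 1.69% were 2-fold higher in the untreated pair. In the anti-PD1 pair 8.14% were 2-fold higher and 11.4% 2-fold lower. With every cell given equal weight the median of the repair genes in the anti-PD1 pair was -0.14. ILC2, innate cells of the same programme, express Il1rl1, Gata3, Areg and Rora as well; a list of 7 ILC2 markers that holds these 4 genes summed to 1519 CPM in untreated KO and 658 CPM in untreated WT, and to 2861 CPM in anti-PD1 KO and 1912 CPM in anti-PD1 WT. Of its defining cytokines, Il5 had 0 UMIs in all 4 sums and Il13 had 1 UMI in untreated WT and 0 in the others. Among T-helper lineage factors, a list that shares Il1rl1, Gata3 and Ahr with the above, 9 of 11 measured were higher in untreated KO (median 0.36) and 7 of 11 in anti-PD1 KO (median 0.50), whereas Tbx21, the Th1 factor, had log2 ratios of 0.07 (-0.80 to 0.87) and -0.04 (-0.79 to 0.66).

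The core programme of regulatory T cells had no common direction between the genotypes. Of 26 measured identity genes 14 were higher and 12 lower in untreated KO (median log2 ratio 0.09) and of 24 in the anti-PD1 pair 11 were higher and 13 lower (median -0.04). Il2ra had log2 ratios of 0.51 (0.37 to 0.65) and -0.22 (-0.43 to -0.01), Ctla4 of 0.48 (0.33 to 0.62) and -0.26 (-0.42 to -0.10), and Ikzf2 of 0.33 (0.21 to 0.45) and 0.72 (0.59 to 0.86). Among costimulatory receptors, 7 of 10 measured were lower in KO in each pair (medians -0.09 and -0.18). Tnfrsf4 had log2 ratios of -0.17 (-0.33 to -0.01) and -1.31 (-1.50 to -1.12), Tnfrsf18 of -0.15 and -0.76, and Cd28, the receptor of CD80 and CD86 on T cells, of -0.14 and -0.06. Ikzf4 (Eos, a Foxp3 partner) was higher in KO, at 0.71 (0.22 to 1.18) and 0.81 (0.11 to 1.52), and Capg, an actin-capping protein gene, lower, at -0.34 (-0.60 to -0.09) and -1.19 (-1.49 to -0.90). Rora, a nuclear receptor of tissue lymphocytes, had 379 CPM in untreated KO and 269 CPM in untreated WT, and 606 CPM in anti-PD1 KO and 328 CPM in anti-PD1 WT. Of 28 activated effector genes 18 were higher in untreated KO and 1 of them by 2-fold (median 0.11), where 1.69% of all measured genes were. Of 30 in the anti-PD1 pair 14 were higher, with 3 at least 2-fold higher and 4 at least 2-fold lower (median -0.09). Among all measured genes of that pair 8.14% were at least 2-fold higher and 11.4% at least 2-fold lower, so these counts lie near the shares of all genes. Of the 8 measured checkpoint receptors 5 and 6 were lower (medians -0.16 and -0.24), among them Vsir (VISTA, -0.55 and -0.29) and Entpd1 (CD39, an ATP-degrading enzyme, -0.57 and -0.22), while Tox, a factor of chronically stimulated T cells, stood at 0.18 and 0.64. Suppressive mediators were higher in 10 of 16 and in 6 of 17 (medians 0.17 and -0.22), and chemokine receptors in 5 of 14 and in 8 of 13 (medians -0.03 and 0.30). The chemokine receptor Ccr2 had log2 ratios of 0.21 and 1.07, Cxcr4, the receptor of Cxcl12, of 1.12 and 0.30, and Cxcr3, the receptor of interferon-induced chemokines, of -0.16 and -1.97.

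**Figure D5:**
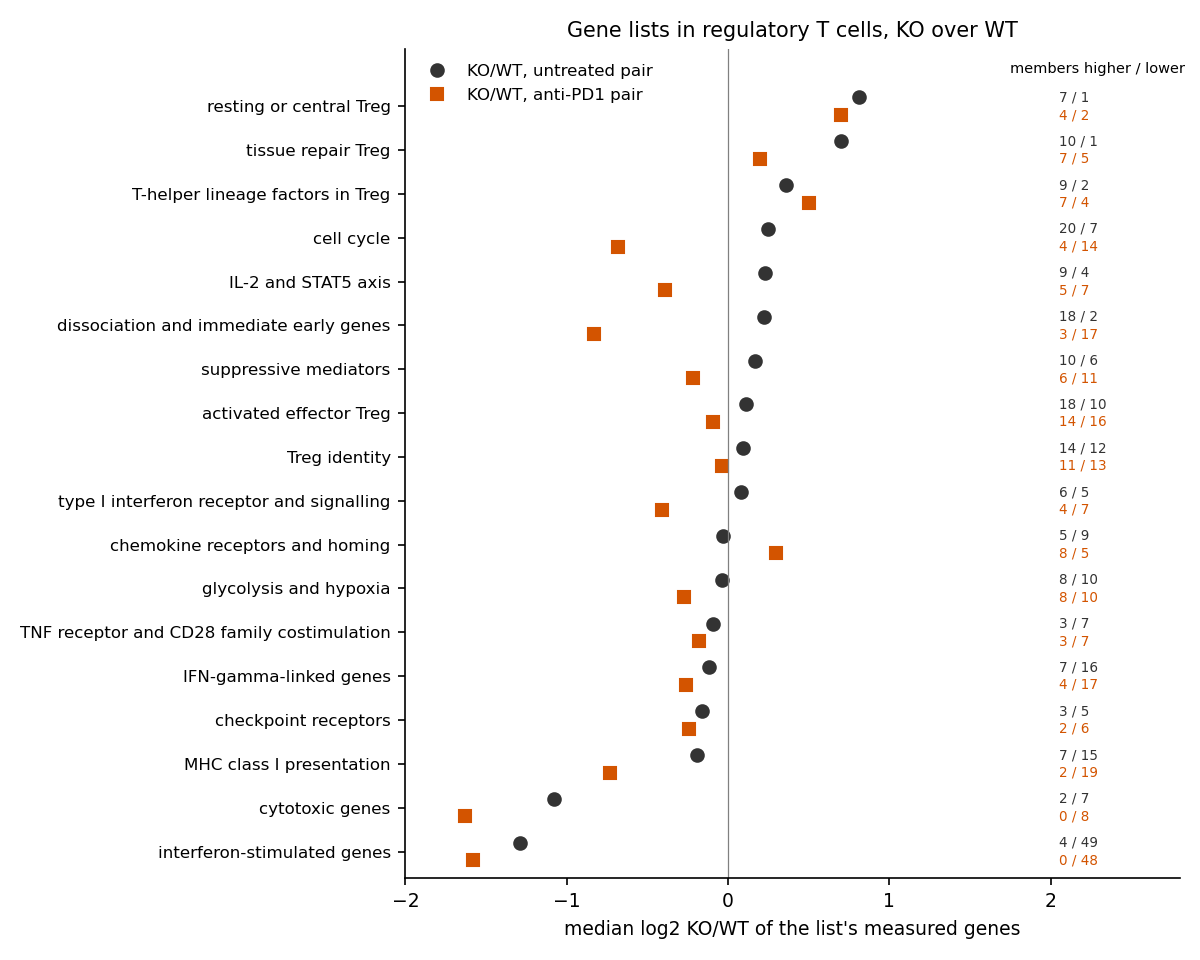
Median log2 ratio KO/WT of the measured genes of 18 lists in regulatory T cells of the untreated (black circles) and anti-PD1 (orange squares) pairs, with the numbers of members higher and lower in KO at the right. The interferon-stimulated and cytotoxic lists are lowest in both pairs (-1.29 and -1.08, and -1.58 and -1.63) and the resting list is highest in both (0.81 and 0.70), while the cell cycle and immediate early lists point opposite ways.

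Lists tied to proliferation and handling changed sign between the pairs. Of 27 cell cycle genes 20 were higher in untreated KO (median log2 ratio 0.25), whereas of 18 in the anti-PD1 pair 14 were lower in KO (median -0.68). With cells free of Csf1r and Cd68 UMIs the untreated median was -0.07. Stmn1, a microtubule regulator of dividing cells, was lower in KO in both pairs (-0.78 and -0.53), as was Tyms, thymidylate synthase (-0.51 and -1.99), while Cks1b, a cyclin-dependent kinase subunit, was higher (0.56 and 0.54). Of 20 dissociation and immediate early genes 18 were higher in untreated KO (median 0.22) and 17 lower in anti-PD1 KO (median -0.83). The heat shock gene Hspa1b had 2793 CPM in untreated KO and 2530 CPM in untreated WT, and 224 CPM in anti-PD1 KO and 52.9 CPM in anti-PD1 WT. The related heat shock gene Hspa1a had log2 ratios of 0.07 and 0.81, and Ier2, an immediate early gene, of -0.13 and -1.15. Of 18 glycolysis and hypoxia genes 10 were lower in KO in each pair (medians -0.04 and -0.27), among them Pgam1, a glycolytic mutase (-0.52 and -1.08), while the hypoxia factor Hif1a (0.39 and 0.52) and the oxidoreductase Ero1l (0.57 and 0.67) were higher. Of 13 and 12 genes of the interleukin-2 and STAT5 axis 9 and 5 were higher (medians 0.23 and -0.39), with Stat5a, the factor downstream of Il2ra, at 0.70 (0.07 to 1.33) and 1.98 (1.25 to 2.79), and the kinase Jak1 at 0.23 and 0.25 with intervals that span 0.

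Over all 3347 genes measured in both pairs, 11 were at least 2-fold higher and 43 at least 2-fold lower in KO in both, and 9 went opposite ways. Outside the lists the strongest genes higher in KO were Ccl24, Mid1, Gm47283, Nckap5 and Fn1. Ccl24, an eosinophil-attracting chemokine made by macrophages, had 116 UMIs in untreated KO and 1 in untreated WT, and 336 in anti-PD1 KO and 0 in anti-PD1 WT, but 72.4% and 63.4% of the KO UMIs came from 1 cell each. Mid1, a ubiquitin ligase gene of the microtubule cytoskeleton on the X chromosome, had 207 UMIs in 37 of 49 cells of untreated KO and 12 in 10 of 137 cells of untreated WT, and 70 UMIs in 31 of 49 cells of anti-PD1 KO and 8 in 6 of 81 cells of anti-PD1 WT (log2 ratios 5.54, 4.79 to 6.60, and 4.34, 3.40 to 5.72). Gm47283 (2.66 and 1.67) and Nckap5 (1.64 and 1.88) were spread over 17 or more cells of each KO sum. Whether the sex of the pooled mice, which the labels do not give, bears on Mid1 was not tested. Fn1, fibronectin, had 72.2% of its untreated KO UMIs in 1 cell. Lower in both pairs were Ifitm1 (-3.12 and -1.91), a relative of Ifitm3, the histone gene Hist1h1b (-1.89 and -2.41), Gm8369 (-1.33 and -1.74), Ehd4 (an endocytic recycling gene, -1.33 and -1.31) and Lgals9 (galectin-9, -1.25 and -3.23). Of the Ifitm1 UMIs of anti-PD1 KO, 72.4% came from 1 cell.

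Regulatory T cells of the anti-PD1 libraries were set against those of the untreated libraries in the same way, and these differences carry the change of library make as well. In KO 331 of 2624 genes (12.6%) were at least 2-fold higher and 259 (9.87%) at least 2-fold lower after anti-PD1, and in WT 566 of 5509 (10.3%) and 540 (9.80%). Of 2611 genes measured in both genotypes 157 were higher and 101 lower in both. Among those outside the lists, Il31ra had 162 UMIs in anti-PD1 KO and 0 in untreated KO, and 457 in anti-PD1 WT and 0 in untreated WT, and Atp6v0c had 91 and 0, and 470 and 3. AC160336.1 had 0 in anti-PD1 KO and 370 in untreated KO, and 0 in anti-PD1 WT and 502 in untreated WT. Such all-or-none genes were not read as effects of treatment. Gm48099 and Rnasek, at 0 in both untreated sums, and Ptp4a1, Hist1h2ap and Gm10076, lower after anti-PD1, completed those named by rank.

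Among the lists, checkpoint receptors had a median log2 ratio anti-PD1/untreated of 0.28 in KO (7 genes) and 0.78 in WT (9 genes), activated effector genes of 0.15 (27 genes) and 0.24 (30 genes), and suppressive mediators of 0.28 (15 genes) and 0.31 (17 genes), where the medians of all genes were -0.06 and -0.04. Tigit, an inhibitory receptor of effector regulatory T cells, had 285 CPM in anti-PD1 KO and 7.01 CPM in untreated KO, and 699 CPM in anti-PD1 WT and 19.7 CPM in untreated WT. Ccr8, the chemokine receptor of tumour regulatory T cells, had 58.3 CPM and 11.7 CPM in KO and 315 CPM and 24.6 CPM in WT, in the same order, and was found in 12 of 49 and 4 of 49 cells and in 51 of 81 and 22 of 137 cells. Both were picked after their values were seen. Conventional CD4 T cells had the same direction. Their Tigit was at 156 CPM in anti-PD1 KO and 11.5 CPM in untreated KO. In WT it was at 330 CPM and 10.2 CPM, in the same order. Their Ccr8 was at 84.3 CPM and 15.6 CPM in KO and 300 CPM and 16.2 CPM in WT. In CD8 T cells both genes were also higher in the anti-PD1 libraries. Whether the classes differ in this rise was not tested. Areg had log2 ratios anti-PD1/untreated of 1.56 in KO and 3.13 in WT. Of the interferon-stimulated genes, 65 were measured in WT, with 39 higher and 26 lower after anti-PD1 (median 0.18), and 16 in KO (median -0.21). Macrophage markers had medians of 2.17 in KO (12 genes) and 3.03 in WT (19 genes), counting Csf1r and Cd68 where measured.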

How the data were processed

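The authors deposited unnormalised UMI counts for each gene in each barcode, made with Cell Ranger 3.1.0 (untreated) and 7.2.0 (anti-PD1) per the file headers, on mm10 (GRCm38) per the submitters' processing notes. Settings for intronic reads and for calling cells are not given in the sources used here. The labels' protocols name a 10x Genomics 5' kit, and they call the sorted cells lung immune cells although the tissue is brain. The 30406 genes shared by the 4 matrices were used, after cells with fewer than 200 genes or over 10% mitochondrial counts had been left out. The members of the class and all gene lists were chosen with earlier results of these data known.

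For each class in each library the counts of its cells were added up and expressed as CPM. A gene was measured in a pair when both sums together held 50 UMIs or more, and log2 ratios took a pseudocount of 0.5 UMIs. Intervals are 95%, exact Poisson for genes and Clopper-Pearson for shares, and the interval of a ratio of shares came from the counts on the log scale. A fold against 0 counts was taken against a floor of 3 counts. With 1 library per group there was no test between genotypes or treatments. The only p-values, adjusted over all genes tested, are those of edgeR's quasi-likelihood test (4.0.16, R 4.3.3, with TMM and filterByExpr). It set regulatory T cells against conventional CD4 T cells or CD8 T cells over the 4 libraries. The test was also run on simulated data with the same spread for all genes and the same class difference in each library. Such data cannot check the p-values under the spread of the real libraries. Each library gives both classes, so it was the block. Cells of the 2 classes were processed in 1 tube, so the spread is that between the 4 libraries. Python 3.11.15 with scanpy 1.11.5, numpy 2.4.6, scipy 1.17.1 and pandas 2.3.3 was used elsewhere, and DESeq2 1.42.0 as an alternative.

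Doublets were kept: Scrublet's automatic threshold marked at most 3 cells a library, so removing its top scores (0.8% per 1000 barcodes) was an alternative. Other alternatives were a stricter filter (500 genes, 5% mitochondrial), no mitochondrial limit, 2 Foxp3 UMIs, no Csf1r or Cd68 UMIs, cells thinned to 2000 or 1000 UMIs, equal weight per cell, TMM factors, a minimum of 20 UMIs or none, a pseudocount of 2 and each library left out.

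Named genes were the 5 label markers and Ifnar1; for KO against WT up to 3 members of each list with at least 50 UMIs in each pair and the same direction, ranked by the smaller absolute log2 ratio; of genes in no list, the top 5 in each direction among those 2-fold or more apart with the same sign in both pairs, and 4 and 4 for anti-PD1 against untreated; and for each comparison of classes the 12 highest and 8 lowest log2 fold changes among genes called and moving alike in all 4 libraries. Receptor segment, mitochondrial, ribosomal, haemoglobin and gate genes were left out beyond the lists. So was a short fixed set of sex-linked genes, which did not hold Mid1 or Gm47283. The other genes named were chosen after their values were seen. Gene positions are from the GENCODE annotation of GRCm38. Some genes are not reported here.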

Additional observations from a re-analysis of the deposited data

Results flagged for a closer look

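Among the members of the gene lists that were measured in both pairs, there were 6 genes for which the KO/WT difference pointed one way in the untreated and the other way in the anti-PD1 pair, each by more than 1.5-fold and with counting intervals away from equality; with 1 library per group, whether the pairs differ was not tested. Of these only Cxcl2 passed 2-fold in both pairs; over all 3347 measured genes, in and out of the lists, 9 did so with opposite signs. Klf2, a factor of quiescent and recirculating T cells, had 458 CPM in untreated KO and 279 CPM in untreated WT (log2 ratio 0.71), and 90.7 CPM in anti-PD1 KO and 230 CPM in anti-PD1 WT (-1.33). Nt5e (CD73, which makes adenosine) had 122 CPM in untreated KO and 183 CPM in untreated WT (-0.59), and 298 CPM in anti-PD1 KO and 94.2 CPM in anti-PD1 WT (1.65). Tapbpl had log2 ratios of 0.67 and -0.78.

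The neutrophil-attracting chemokine Cxcl2 had 435 CPM in untreated KO and 46.7 CPM in untreated WT (3.20), and 100 CPM in anti-PD1 KO and 372 CPM in anti-PD1 WT (-1.88). Cxcl9, a chemokine for Cxcr3-bearing T cells, had log2 ratios of -3.72 and 0.96, with 73.4% of its UMIs in anti-PD1 KO and 92.5% of those in untreated WT in 1 cell each. Ube2c, a ubiquitin enzyme of mitosis, had 1.15 and -0.96, with 46.6% of the untreated KO UMIs in 1 cell.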

How the results depend on the processing

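The interferon-stimulated genes were lower in KO under each alternative tried, with a median log2 ratio of -1.59 to -1.15 in the untreated and -2.19 to -1.34 in the anti-PD1 pair. The anti-PD1 log2 ratio of the regulatory T cell share, -0.98, was -1.53 with 2 Foxp3 UMIs.

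Counts of 2-fold differences rest on the minimum of UMIs. With a minimum of 20 UMIs and with none, 676 and 4345 genes passed in the untreated pair (199 as reported; 309 with equal weight per cell), 1450 and 5319 in the anti-PD1 pair (714), 1383 and 5621 for anti-PD1 against untreated in KO (590) and 1873 and 5677 in WT (1106). With cells free of Csf1r and Cd68 UMIs the last 3 counts were 357, 384 and 657.

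In the comparisons of classes, the pairing of sums by library mattered: 129 genes against conventional CD4 T cells (902 as reported) and 253 against CD8 T cells (1476) were called without the library block. Leaving out 1 library gave 461 to 793 and 839 to 1447. DESeq2 called 611 and 1129, and edgeR without the filter on low counts 1295 and 1948.

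Without Csf1r and Cd68 UMIs, 4 medians of lists changed sign: cell cycle in the untreated pair (-0.07), and checkpoint receptors (0.05), the interleukin-2 and STAT5 axis (0.16) and type I interferon signalling (0.10) in the anti-PD1 pair. The anti-PD1 median of tissue repair genes was -0.14 with equal weight per cell. The cause was not tested. The alternatives of leaving out the top cell of each gene, and those for the other lists and for anti-PD1 against untreated, were chosen after seeing the data. Ratios of resting cells could not be formed, since 3 libraries had 0 such cells. Sums of 49 KO cells limit what low genes can show.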

Other observations

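Penk, the precursor of the opioid enkephalins, which regulatory T cells of tissues are known to make, was carried by few cells. It had 519 CPM from 11 of 49 cells in untreated KO and 17.2 CPM from 4 of 137 cells in untreated WT, and 463 CPM from 10 of 49 cells in anti-PD1 KO and 436 CPM from 13 of 81 cells in anti-PD1 WT. A single cell held 36.5%, 71.4%, 37.1% and 34.0% of these UMIs in the same order of groups. Conventional CD4 T cells had 331 CPM of Penk in untreated KO, 146 CPM in untreated WT, 807 CPM in anti-PD1 KO and 962 CPM in anti-PD1 WT. That is above regulatory T cells except in untreated KO, and the class difference did not pass the test (adjusted p = 0.153 by edgeR). The gene was picked after its values were seen.

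RNA of other cell types was unevenly present. Of the 10 microglial markers, Sall1 was at 0 in untreated KO, untreated WT and anti-PD1 KO regulatory T cells, and the list summed to 145 CPM in untreated KO and 124 CPM in untreated WT, and to 972 CPM in anti-PD1 KO and 1461 CPM in anti-PD1 WT. B cell markers summed to 165 to 381 CPM, neutrophil markers to 3.24 to 42.6 CPM, gamma-delta T cell markers to 0 to 48.3 CPM and erythroid and platelet markers to 0 to 25.9 CPM. Of 10 markers of glia, neurons and the glioma 6 to 8 were at 0, among them Gfap, Olig2 and Sox2 in all 4 libraries, and the list summed to 1580 CPM in untreated KO and 1325 CPM in untreated WT, and to 1137 CPM in anti-PD1 KO and 1884 CPM in anti-PD1 WT.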
